A study of Mus musculus with 25 samples.

Results

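The genes described here are 9 members of the cytokine signalling pathway that runs through Janus kinases and STAT proteins: the feedback inhibitors Socs1 and Socs3, the kinases Jak2 and Jak3, and the transcription factors Stat2, Stat3, Stat4, Stat5a and Stat6. They were chosen by name, as the genes whose array probes carry a RefSeq transcript of that symbol, and all 9 were among the 15104 genes tested. Liver RNA of 25 female C57BL/6NcrSlc mice was hybridised to 25 one-colour Agilent arrays, 1 mouse per array, in 5 groups of 5. Untreated mice received no injection that the labels name. The other 4 groups were given 10 mg/kg ConA (concanavalin A), a lectin from jack beans that stimulates T cells and causes hepatitis in mice, and 15 minutes later an intraperitoneal injection of vehicle or of 1 mg/kg BW245C, an agonist of the prostaglandin D2 receptor DP1. Their livers were taken 3 hr or 24 hr later. The labels give no age for the mice. The study's title asks what the agonist does in this hepatitis; no group received BW245C without ConA.

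Cytokines such as the interferons and interleukin 6 bind receptors that carry Janus kinases on their inner side. The kinases phosphorylate the receptor and the STATs that dock there, and the STATs then form dimers, enter the nucleus and activate genes. Among those genes are the Socs genes, whose proteins bind the kinases or the receptors and shut the signal off. In liver, Stat2 carries type I interferon signals, Stat3 drives the acute phase response to interleukin 6, Stat5a and Stat5b carry growth hormone signals, Stat4 acts downstream of interleukin 12 in T and NK cells, and Stat6 acts downstream of interleukins 4 and 13. RNA levels do not report phosphorylation, so the activity of these proteins was not measured.

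All values are log2 levels: the processed signal of a probe on a log2 scale, less the 75th percentile of the array, so that 0 is the signal that 75% of the array's probe spots do not exceed. Levels of different genes rest on different probes and are not set against each other. Differences between groups are log2 differences with the standard error (SE) of a limma fit over all 25 arrays, and a difference was called where the p adjusted by Benjamini and Hochberg over 15104 genes was under 0.05. Between 52.2% and 61.6% of an array's spots were well above background, and none was saturated. Precision is set by the 5 arrays of each group.

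The arrays lay on 5 slides that did not hold the groups evenly. Slide 1 held 4 untreated and 1 ConA + vehicle 3 hr array, slide 2 held 1 untreated, 2 ConA + vehicle 3 hr and 1 ConA + BW245C 24 hr array, and slide 3 held 2 ConA + vehicle 3 hr, all 5 ConA + BW245C 3 hr and 1 ConA + vehicle 24 hr array. Slide 4 held 4 ConA + vehicle 24 hr and 3 ConA + BW245C 24 hr arrays, and slide 5 held the last ConA + BW245C 24 hr array, which a fit with the slide as a block in effect leaves out. Hepatocyte markers were above background on every array, and the summed level of the 8 measured lay between 11.5 and 11.8 (log2, lowest and highest mouse) in untreated livers and between 10.5 and 11 in ConA + vehicle livers at 24 hr. The liver is a mixture, and in such bulk RNA fewer cells of a type and less RNA per cell cannot be told apart.

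The members lie on 6 chromosomes (RefSeq, build GRCm38.p6). Socs1 spans chr16:10783808-10785536, Socs3 chr11:117966079-117970336, Jak2 chr19:29251803-29313095 and Jak3 chr8:71676383-71690577. Stat5a, at chr11:100859351-100885169 on the plus strand, sits between Stat5b and Stat3, at chr11:100886806-100939594, which are both on the minus strand. Between Stat5b and Stat5a lie 346 bases, and between Stat5a and Stat3 1636 bases. Stat4, at chr1:51987106-52107189, is the only member on its chromosome, as are Socs1, Jak2 and Jak3 on theirs. Stat6, at chr10:127642955-127660987, and Stat2, at chr10:128270498-128292853, share a chromosome but lie 609510 bases apart.

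Promoters were read because the pathway's own factors bind known DNA motifs, and the 4 shown are those of a member in which a motif was found. Each is the 250 bases before a RefSeq start, 5′ to 3′ on the gene's strand, with motif matches in capitals. The motifs were the STAT palindrome, TTC followed by GAA with either 3 or 4 bases of any kind between them, and the core of the interferon-stimulated response element, GAAA followed by GAAA with 2 bases of any kind between them, which Stat2 binds in a complex with Irf9. Each was searched on both strands. Base -1 is the last base before the start.
Socs1 promoter (chr16:10785537-10785786, minus strand): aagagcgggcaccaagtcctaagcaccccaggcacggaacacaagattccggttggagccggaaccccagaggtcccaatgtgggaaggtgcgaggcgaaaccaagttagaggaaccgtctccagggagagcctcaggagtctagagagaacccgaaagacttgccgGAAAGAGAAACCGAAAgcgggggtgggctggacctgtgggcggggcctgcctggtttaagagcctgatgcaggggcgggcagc
Socs3 promoter (chr11:117969367-117969616, minus strand): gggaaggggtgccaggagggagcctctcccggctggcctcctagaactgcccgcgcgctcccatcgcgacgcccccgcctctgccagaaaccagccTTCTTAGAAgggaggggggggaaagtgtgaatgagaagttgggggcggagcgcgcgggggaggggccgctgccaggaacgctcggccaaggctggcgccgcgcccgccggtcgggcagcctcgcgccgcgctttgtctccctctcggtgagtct
Stat2 promoter (chr10:128270248-128270497, plus strand): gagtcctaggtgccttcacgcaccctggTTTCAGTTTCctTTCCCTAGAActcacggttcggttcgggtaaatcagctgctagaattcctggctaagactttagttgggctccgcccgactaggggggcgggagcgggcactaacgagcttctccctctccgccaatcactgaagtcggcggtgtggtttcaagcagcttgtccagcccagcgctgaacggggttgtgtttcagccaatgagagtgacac
Stat4 promoter, the second listed (chr1:52007990-52008239, plus strand): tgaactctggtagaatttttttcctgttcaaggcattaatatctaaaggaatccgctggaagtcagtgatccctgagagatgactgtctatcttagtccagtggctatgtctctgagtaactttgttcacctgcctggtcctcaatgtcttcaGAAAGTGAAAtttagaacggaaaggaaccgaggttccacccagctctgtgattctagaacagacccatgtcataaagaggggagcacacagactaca
In Socs1 the interferon response core occurs at bases -83 to -74 and again at -77 to -68, and these matches overlap. In Socs3 the STAT palindrome with 3 bases between occurs at -154 to -146, in a promoter whose start lies inside the annotated span of the gene. In Stat2 the interferon response core is read on the opposite strand at -222 to -213, beside the STAT palindrome with 4 bases between at -210 to -201. In Stat4 the interferon response core occurs at -97 to -88. Of 32851 promoters of the same length in the table, 7.02% hold the STAT palindrome with 3 bases between, 5.85% the one with 4 and 2.98% the interferon response core. None of these motifs was found in the listed promoters of Stat3, Stat5a, Stat6, Jak2 and Jak3 or in the first of Stat4. A match is a description of the sequence and no evidence of binding.

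At 3 hr after ConA + vehicle all 9 members were higher than in untreated liver, and the inhibitors Socs1 and Socs3 by the widest margins of the 9. Over all 15104 genes 62% were called in this comparison, 25% higher and 37% lower, and the median log2 difference was -0.09 over all genes against 1.77 over the 9 members. The groups did not overlap for 8 members, where 47.4% of all genes showed no overlap; Stat4 was the exception. Of 9 neutrophil markers measured (10 listed), 7 were higher than untreated at 3 hr and 7 at 24 hr, none lower. Of all genes 25% and 29.8% were higher at these times. Ngp, Ltf, Mmp8 and Cxcr2 were not above background in any untreated mouse. They passed the filter through the ConA groups and so had to differ from untreated. The summed level of the markers ran from 7.48 to 8.22 at 3 hr and from 8.03 to 8.62 at 24 hr, against 6.86 to 7.0 in untreated mice. Csf3r made up most of the untreated sum (mean 6.89) and was not called at 3 hr (0.14, adjusted p = 0.157). The part of these markers in the members' levels was not tested.

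Socs1 encodes an inhibitor that binds Janus kinases directly, with interferon gamma signalling as its best known target. Its log2 level was -2.17, -1.98, -2.07, -2.24 and -2.38 in the 5 untreated mice and 5.92, 5.98, 5.77, 6.06 and 5.83 at 3 hr after ConA + vehicle. The rise was 271-fold (log2 8.08 ± 0.22, adjusted p = 2.64e-18), and log2 7.12 with normexp, another background correction, used with an offset of 50. Every ConA mouse lay far above every untreated mouse, and the spread within each group (SD 0.16 and 0.11) was small beside the gap.

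Socs3 encodes the inhibitor that docks on gp130, the shared signalling chain of the interleukin 6 receptors. Untreated livers had log2 levels of 1.08, 0.55, 0.28, 0.17 and 0.0025, and ConA + vehicle livers at 3 hr had 7.20, 7.04, 6.95, 7.21 and 7.07. This is a 102-fold rise (log2 6.68 ± 0.24, adjusted p = 1.66e-16). The untreated mice were more spread out (SD 0.42) than the ConA mice (SD 0.11), with replicate 1 highest, and the groups were far apart.

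Jak2, the kinase of the receptors for interferon gamma, growth hormone and erythropoietin, stood between 1.09 and 1.15 in untreated livers and at 3.54, 3.11, 3.08, 2.71 and 2.92 at 3 hr, a 3.84-fold rise (log2 1.94 ± 0.16, adjusted p = 5.08e-10). Jak3, which pairs with the common gamma chain of lymphocyte cytokine receptors, was at -1.03, -1.18, -1.25, -1.38 and -0.75 in untreated livers. At 3 hr it was at 0.36, 0.26, 0.14, 0.0042 and -0.09, 2.39-fold higher (log2 1.26 ± 0.13, adjusted p = 1.26e-08). Neither kinase showed any overlap between the groups. This holds for the brighter of 2 Jak3 probes, which is designed to another RefSeq transcript than the dimmer; the dimmer gave only 0.15 ± 0.18 (adjusted p = 0.479), so the early Jak3 call rests on the probe.

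Among the STATs, Stat3 rose most at 3 hr, from 3.65, 3.43, 3.32, 3.44 and 3.82 to 5.90, 6.39, 5.62, 5.31 and 5.31, or 4.51-fold (log2 2.17 ± 0.16, adjusted p = 5.42e-11). Its other probe gave 2.15. The ConA mice were unevenly spread (SD 0.46), with replicates 4 and 5, both on slide 3, lowest. Stat5a, a mediator of growth hormone and interleukin 2 signals, rose 3.42-fold (log2 1.77 ± 0.13, adjusted p = 5.14e-11), from between 1.23 and 1.61 to 2.96, 3.43, 3.25, 3.27 and 3.25. Stat2, a mediator of type I interferon signalling, rose 1.69-fold (log2 0.76 ± 0.09, adjusted p = 1.08e-07), from between 2.93 and 3.19 to between 3.72 and 4.07. The 3 genes had no overlap between the groups.

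Stat6 rose 1.5-fold at 3 hr (log2 0.58 ± 0.09, adjusted p = 7.2e-06), from between 1.20 and 1.35 to between 1.60 and 1.99, and its 2 dimmer probes gave 0.64 and 0.45. Stat4, whose probe was above background in 4 of 5 untreated mice, was at -3.09, -4.19, -4.03, -4.06 and -4.40 in untreated livers. At 3 hr it was at -2.82, -3.29, -3.11, -3.13 and -3.38, a 1.75-fold difference (log2 0.81 ± 0.20, adjusted p = 0.00117). Untreated replicate 1 lay among the ConA mice, so the Stat4 groups overlapped. A slide block left all 9 members called and moved them by at most 0.18, with Socs1 at 248-fold and Socs3 at 95.9-fold; within slides 1 and 2 all 9 differences were above 0.

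**Figure D1:**
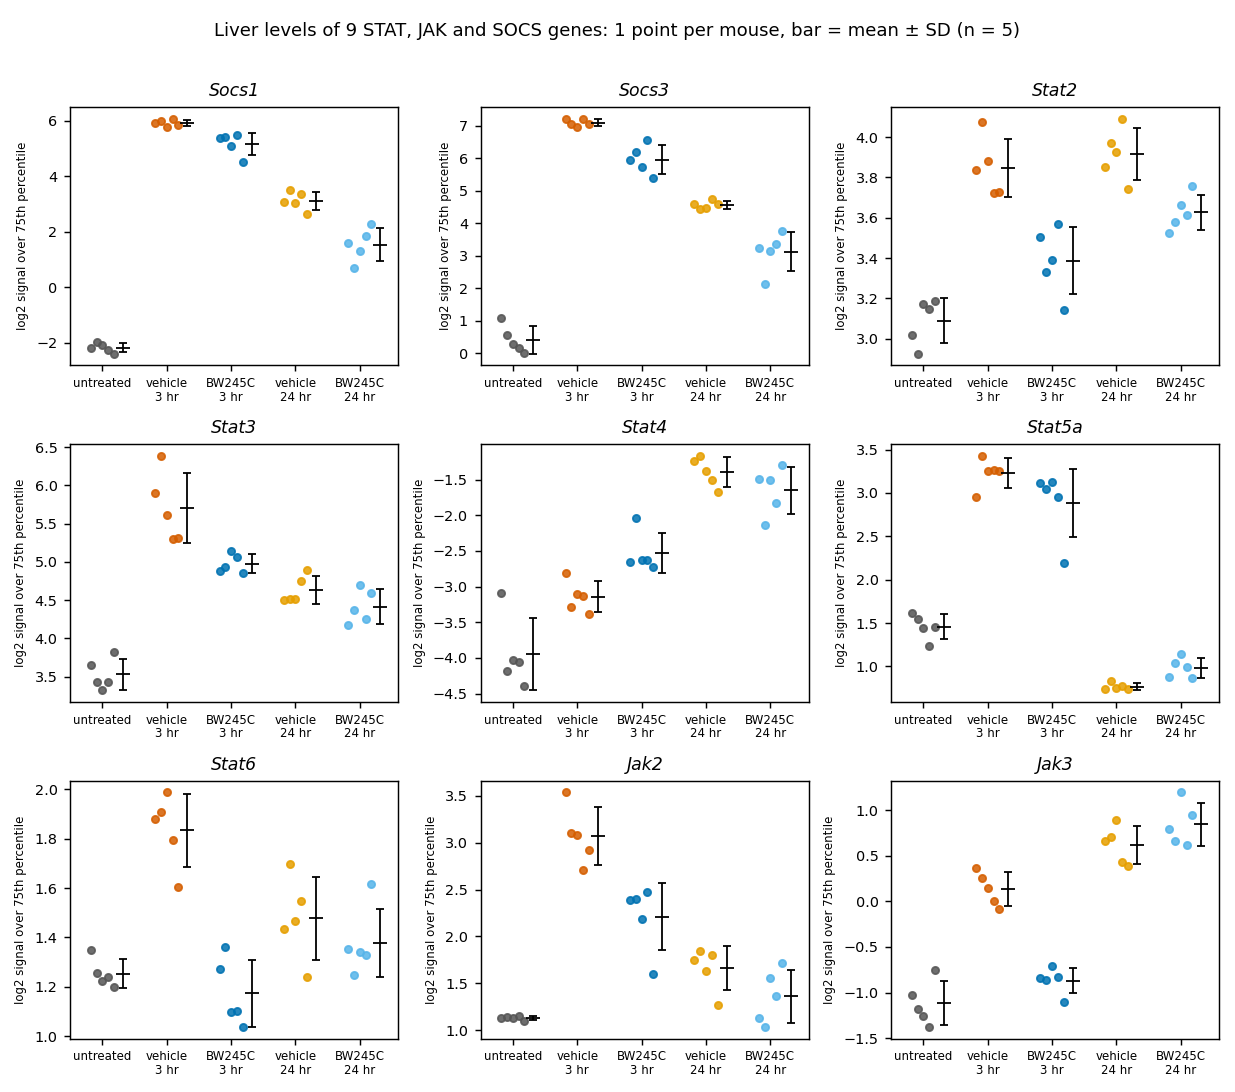
Log2 level (log2 signal minus the 75th percentile of the array) of each member in each of the 25 mice, 1 point per mouse in 5 groups, with the mean ± SD (n = 5) as a bar. Socs1 and Socs3 step down in the order ConA + vehicle 3 hr, ConA + BW245C 3 hr, ConA + vehicle 24 hr, ConA + BW245C 24 hr and untreated with no overlap between neighbouring groups, whereas Stat4 and Jak3 are highest at 24 hr and Stat5a is lowest at 24 hr.

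At 24 hr after ConA + vehicle 8 members were still higher than in untreated liver and Stat5a was lower. Of all genes 68.9% were called, 29.8% higher and 39.1% lower, 64% showed no overlap, and the median log2 difference was -0.08; the members' median was 1.10 and 8 of the 9 showed no overlap. Of the genes called, 43.2% were higher, against 58.6% where the percentile was taken over probes found on all arrays and 65.7% with the values of the deposited series matrix. This choice of scaling shifted the median of all genes from -0.08 to 0.26 with the series matrix, and in the other comparisons from -0.04 to 0.08 (BW245C against vehicle at 3 hr), from 0.01 to -0.10 (at 24 hr) and from -0.03 to 0.42 (24 hr against 3 hr of vehicle). This comparison uses the same untreated arrays as the 3 hr comparison. The inhibitors remained the widest apart: Socs1 was at 3.07, 3.50, 3.04, 3.34 and 2.66, or 39.1-fold above untreated (log2 5.29 ± 0.22, adjusted p = 6.02e-15; 4.54 with normexp). Socs3 was at 4.6, 4.46, 4.46, 4.74 and 4.59, or 17.8-fold above (log2 4.15 ± 0.24, adjusted p = 5.48e-13). Both stood clear of the untreated mice and clear of the 3 hr mice.

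Stat5a at 24 hr was at 0.73, 0.84, 0.75, 0.78 and 0.74, below every untreated mouse, a 1.61-fold fall (log2 -0.69 ± 0.13, adjusted p = 6.63e-05), which was -0.35 (adjusted p = 0.0232) with the series matrix. Stat4 was at -1.24, -1.16, -1.38, -1.51 and -1.68, 5.88-fold above untreated (log2 2.56 ± 0.20, adjusted p = 8.21e-11). With normexp the Stat4 difference was 1.06, still called. Jak3 was at 0.66, 0.71, 0.90, 0.43 and 0.39, 3.34-fold above (log2 1.74 ± 0.13, adjusted p = 4.26e-11). These groups did not overlap. The dimmer Jak3 probe was also called here, at 0.93 ± 0.18 (adjusted p = 6.58e-05). T and NK lymphocyte markers moved with them: 10 of 11 measured (12 listed) were higher than in untreated liver at 24 hr and 9 at 3 hr, none lower, while their summed level ran from 5.65 to 6.36 at 24 hr and from 5.39 to 6.34 in untreated mice. Cd3d, Cd3e and Cd3g, which define T cells, were above background in all 25 mice. Cd8a was not above background in any untreated mouse and so passed the filter through the ConA groups. Of 4 B cell markers 2 were higher than untreated at 3 hr and 4 at 24 hr, where 25% and 29.8% of all genes were. The part of these cells in the Stat4 and Jak3 levels was not tested.

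Stat3 (2.15-fold, log2 1.10 ± 0.16), Stat2 (1.77-fold, 0.83 ± 0.09) and Jak2 (1.45-fold, 0.53 ± 0.16, adjusted p = 0.00651) were higher than untreated at 24 hr without overlap. Stat6 was 1.17-fold higher (0.22 ± 0.09, adjusted p = 0.0333) with overlapping groups. The other Stat6 probes gave 0.17 (adjusted p = 0.359) and -0.10 (adjusted p = 0.515), and the call was lost when any 1 of 6 arrays was left out, with an adjusted p of up to 0.112. Under a slide block all 9 kept their call and direction, moving by at most 0.40, but no within-slide value exists because these groups never shared a slide.

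Between 3 hr and 24 hr of ConA + vehicle, 6 members fell, 2 rose and Stat2 was not called. Of all genes 68.4% were called, 33.2% higher and 35.3% lower, and 52.3% did not overlap. Of those called 48.5% were higher, against 65.8% and 74.1% under the same 2 scalings. Socs1 fell 6.92-fold, Socs3 5.76-fold, Stat5a 5.52-fold, Jak2 2.65-fold and Stat3 2.10-fold, each without overlap. Stat4 rose 3.36-fold (log2 1.75 ± 0.20, adjusted p = 4.27e-08) and Jak3 1.40-fold (log2 0.48 ± 0.13, adjusted p = 0.00212), also without overlap; with normexp Stat4 rose by 0.69. Stat6 fell by 0.36 on the log2 scale (adjusted p = 0.00143), but not under other scalings, where it was -0.07 (percentile over probes found on all arrays) or 0.093 (deposited series matrix). Stat2 differed by 0.07 ± 0.09 (adjusted p = 0.518) and was called higher by 0.35 to 0.52 under 3 other scalings. In BW245C livers, of whose genes 70.1% were called between the times (35.8% higher, 34.3% lower; 51.1% of the calls higher, against 66.5% with the series matrix), Socs1 fell 12.4-fold, Socs3 7.11-fold, Stat5a 3.74-fold, Jak2 1.80-fold and Stat3 1.47-fold, and Jak3 rose 3.28-fold and Stat4 1.84-fold. Stat2 rose by 0.24 (adjusted p = 0.0206), a call that the slide block ended (0.10, adjusted p = 0.549), and Stat6 was not called (0.20, adjusted p = 0.051), though 4 other scalings or background corrections called it at 0.21 to 0.43.

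The comparison of BW245C with vehicle at 3 hr asks what the DP1 agonist changed early. Of the 9 members, 7 were lower in BW245C livers, Stat4 was higher, and Stat5a was not called. Of all genes 28.6% were called, 11.8% higher and 16.9% lower, and 13.5% showed no overlap, against 8 of the 9 members; 41.1% of the calls were higher, against 63.9% and 62.1% under the other 2 scalings, and the median log2 difference was -0.04 over all genes and -0.73 over the members. Socs3 was at 5.95, 6.18, 5.73, 6.55 and 5.38 with BW245C, 2.20-fold below vehicle (log2 -1.14 ± 0.24, adjusted p = 0.00132). Socs1 was at 5.38, 5.42, 5.11, 5.47 and 4.50, 1.67-fold below (log2 -0.74 ± 0.22, adjusted p = 0.0161). Replicate 5 was the lowest BW245C mouse for every member, so the members' differences here share this mouse. Without it the Socs1 difference was -0.57 (adjusted p = 0.0568), the only call of a member lost.

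Jak3 in BW245C livers at 3 hr was at -0.84, -0.86, -0.71, -0.83 and -1.10, 2.01-fold below vehicle (log2 -1.0 ± 0.13, adjusted p = 1.12e-05), and overlapped with the untreated mice. The dimmer Jak3 probe gave -0.18 ± 0.18 (adjusted p = 0.475). Jak2 was at 2.39, 2.40, 2.18, 2.47 and 1.60, 1.82-fold below (log2 -0.86 ± 0.16, adjusted p = 0.000626). Replicate 5 was again lowest for both kinases, and neither group overlapped its vehicle group.

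Stat6 with BW245C was at 1.27, 1.36, 1.10, 1.10 and 1.04, 1.58-fold below vehicle (log2 -0.66 ± 0.09, adjusted p = 2.5e-05), and its other probes gave -0.72 and -0.74. Stat3 was at 4.89, 4.93, 5.14, 5.07 and 4.86, 1.66-fold below (log2 -0.73 ± 0.16, adjusted p = 0.00224), and Stat2 lay between 3.14 and 3.57, 1.38-fold below (log2 -0.46 ± 0.09, adjusted p = 0.000682). None of the 3 overlapped with vehicle. Stat5a lay at 3.11, 3.04, 3.13, 2.96 and 2.20, a difference of -0.34 ± 0.13 (95% interval -0.62 to -0.07, adjusted p = 0.0527). With normexp it was called (-0.34, adjusted p = 0.0354). Without replicate 5, which lay apart from the other 4, the Stat5a difference was -0.17. Stat4 was at -2.65, -2.03, -2.63, -2.62 and -2.72, 1.53-fold above vehicle (log2 0.61 ± 0.20, adjusted p = 0.0244); without BW245C replicate 2, the highest, it was 0.49 (adjusted p = 0.0768). The Stat4 call was also lost with normexp (0.22, adjusted p = 0.101) and with quantile normalization (0.45, adjusted p = 0.108). Of 11 T and NK lymphocyte markers 2 were higher and 1 lower with BW245C, where 11.8% and 16.9% of all genes were. Their summed level ran from 6.38 to 6.91 with BW245C and from 5.69 to 6.66 with vehicle. The part of these cells in the Stat4 and Jak3 differences was not tested.

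The slide touches this comparison, since all BW245C 3 hr arrays lay on slide 3 with only 2 of the vehicle arrays. With the slide as a block 5 of the 8 calls remained: Socs3 (-1.15, adjusted p = 0.0165), Jak3 (-0.81, adjusted p = 0.00135), Jak2 (-0.63, adjusted p = 0.0315), Stat6 (-0.54, adjusted p = 0.00187) and Stat2 (-0.34, adjusted p = 0.0397). Socs1 (-0.78, adjusted p = 0.0585), Stat4 (0.72, adjusted p = 0.0713) and Stat3 (-0.35, adjusted p = 0.152) no longer passed. Within slide 3 alone, 5 BW245C against 2 vehicle mice, the log2 differences were -0.77 for Socs1, -1.18 for Socs3, -0.60 for Jak2, -0.83 for Jak3, -0.34 for Stat2, -0.33 for Stat3, -0.37 for Stat5a, -0.53 for Stat6 and 0.72 for Stat4. All 9 kept their sign.

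**Figure D2:**
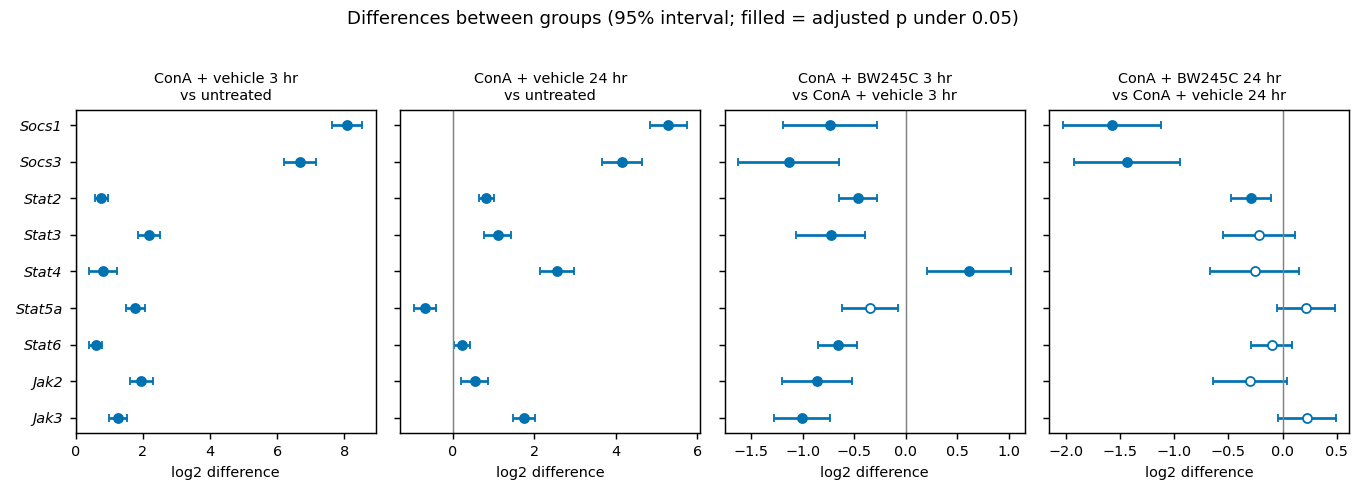
Log2 difference with its 95% interval for the 9 members in 4 comparisons, filled where the adjusted p was under 0.05; each panel has its own scale. Socs1 and Socs3 are the farthest from 0 in both ConA panels and in the 24 hr agonist panel, and in the 3 hr agonist panel 7 members are filled below 0 and Stat4 above 0.

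At 24 hr the agonist's difference was found in the inhibitors and in Stat2: 3 members were lower in BW245C than in vehicle livers and 6 were not called. Of all genes 26.6% were called, 17.6% higher and 8.95% lower, and 17.4% showed no overlap. Of the calls 66.3% were higher, against 52.1% and 42.8% under the other 2 scalings. The median log2 difference was 0.01 over all genes and -0.26 over the members. Socs1 was at 1.61, 0.68, 1.29, 1.85 and 2.27 with BW245C, 2.99-fold below vehicle (log2 -1.58 ± 0.22, adjusted p = 2.96e-05). Socs3 was at 3.24, 2.13, 3.14, 3.38 and 3.76, 2.71-fold below (log2 -1.44 ± 0.24, adjusted p = 0.000133). Replicate 2 was the lowest BW245C mouse for both, and neither inhibitor overlapped with vehicle. Both stayed above every untreated mouse.

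Stat2 at 24 hr was at 3.52, 3.58, 3.66, 3.61 and 3.76 with BW245C and at 3.85, 3.97, 3.93, 4.09 and 3.74 with vehicle, 1.22-fold lower (log2 -0.29 ± 0.09, adjusted p = 0.0194). The groups overlapped, and without vehicle replicate 4 the difference was -0.25 (adjusted p = 0.0638). The other members gave intervals rather than calls. Stat3 differed by -0.22 (95% interval -0.55 to 0.12), Jak2 by -0.30 (-0.64 to 0.04), Stat4 by -0.26 (-0.67 to 0.15) and Stat6 by -0.10 (-0.29 to 0.09). Jak3 differed by 0.22 (-0.04 to 0.49), and Stat5a, whose groups did not overlap (0.87 to 1.15 against 0.73 to 0.84), by 0.22 (-0.05 to 0.49, adjusted p = 0.228).

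Slide 4 held 3 BW245C and 4 vehicle mice of 24 hr, and within it Socs1 differed by -1.75, Socs3 by -1.64, Stat2 by -0.36, Jak2 by -0.46 and Stat3 by -0.40. The 3 calls remained with the slide as a block, and Stat3 (-0.42, adjusted p = 0.0244) and Jak2 (-0.50, adjusted p = 0.0284) were added. Without the block Stat3 was called by its dimmer probe (-0.38, adjusted p = 0.0337) and with quantile normalization (-0.38, adjusted p = 0.0225). Neutrophil markers moved with the inhibitors at this time. With BW245C 6 of the 9 were lower than with vehicle at 24 hr and none at 3 hr, where 8.95% and 16.9% of all genes were. At 24 hr the summed level of these markers ran from 7.06 to 7.71 against 8.03 to 8.62. In untreated mice, where it ran from 6.86 to 7.0, the neutrophil genes Ngp, Ltf, Mmp8 and Cxcr2 were not above background on any array. Their part in the Socs1 and Socs3 levels was not tested.

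**Figure D3:**
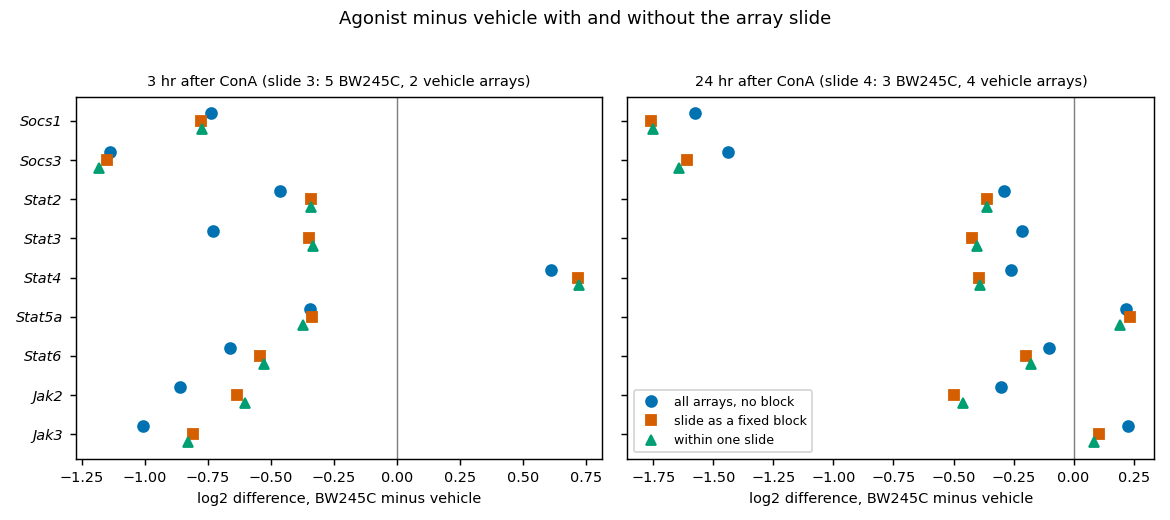
Log2 difference between BW245C and vehicle livers at 3 hr and at 24 hr for each member, from all arrays (circles), with the slide as a fixed block (squares) and within slide 3 for 3 hr or slide 4 for 24 hr (triangles). No member changes sign between the 3 settings; Stat3 moves most at 3 hr, from -0.73 to -0.35 with the block.

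Whether the agonist's difference itself changed with time was tested as the 24 hr difference minus the 3 hr difference, for which 30% of all genes were called (19.3% higher, 10.8% lower). Of these calls 64.1% were higher, against 37.3% and 32% under the other 2 scalings. The members called were Jak3 (1.23 ± 0.18, adjusted p = 0.000122), Stat6 (0.56 ± 0.13, adjusted p = 0.00357), Stat5a (0.56 ± 0.19, adjusted p = 0.0275), Stat4 (-0.87 ± 0.28, adjusted p = 0.0241) and Socs1 (-0.84 ± 0.31, adjusted p = 0.0448). For Jak3 and Stat6 the agonist's difference was below 0 at 3 hr and nearer 0 or above at 24 hr, while for Socs1 it was farther below 0 at 24 hr. With the slide as a block Jak3 alone was called (0.91, adjusted p = 0.0144), and the dimmer Jak3 probe gave 0.24 (adjusted p = 0.482). The Socs1 call was lost without any 1 of 17 of the 25 arrays. Quantile normalization ended the calls of Stat4 (-0.66, adjusted p = 0.0981) and Stat5a (0.44, adjusted p = 0.0736), normexp that of Stat4 (-0.34, adjusted p = 0.0627), and the series matrix those of Stat5a (0.34, adjusted p = 0.179) and Stat6 (0.33, adjusted p = 0.0624). The percentile over probes found on all arrays ended that of Stat5a too (0.37, adjusted p = 0.137). Socs3 (-0.30, adjusted p = 0.51), Stat2 (0.17, adjusted p = 0.305), Stat3 (0.51, adjusted p = 0.0911) and Jak2 (0.56, adjusted p = 0.0714) were not called.

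The other genes of the 3 families, given for the pathway's sake, did not all follow the members. Among inhibitors, Cish, which acts on growth hormone and interleukin 2 receptors, rose 16.9-fold at 3 hr (log2 4.08 ± 0.31) and Socs2, an inhibitor of growth hormone signalling, 16-fold (log2 4.00 ± 0.48). At 24 hr they differed from untreated by 0.58 and -0.74 and were not called, although Cish was called under 3 other scalings, at 0.79 to 0.93. Socs7 rose by 0.90 and Socs5 fell by 1.24 at 3 hr, and Socs4 and Socs6 were not called there. At 24 hr Socs6 was higher (0.38) and Socs5 lower (-0.40) than untreated, and Socs4 and Socs7 were not called. In BW245C livers at 3 hr Socs7 (-0.62) and Socs4 (-0.41) were lower and Socs5 higher (0.27), though none of these 3 calls held with the slide as a block. At 24 hr Socs6 alone of these other inhibitors was called, lower with BW245C than with vehicle (-0.48 ± 0.10, adjusted p = 0.000967).

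Stat5b, the growth hormone mediator next to Stat5a on the chromosome, was lower by 0.22 at 3 hr, where Stat5a was higher, and fell by 1.13 (2.19-fold) at 24 hr. With BW245C at 24 hr Stat5b was higher than with vehicle (0.40 ± 0.09, adjusted p = 0.00229). Of the kinases, Jak1 rose by 0.82 at 3 hr and was lower with BW245C (-0.38), and Tyk2 was lower at 3 hr (-0.38), at 24 hr (-0.35) and with BW245C at 3 hr (-0.37). The agonist calls of Jak1 and Tyk2, the early call of Stat5b and both ConA calls of Tyk2 were lost with the slide as a block, and Tyk2 at 24 hr was not called under 2 other scalings (-0.12 and -0.01).

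**Figure D4:**
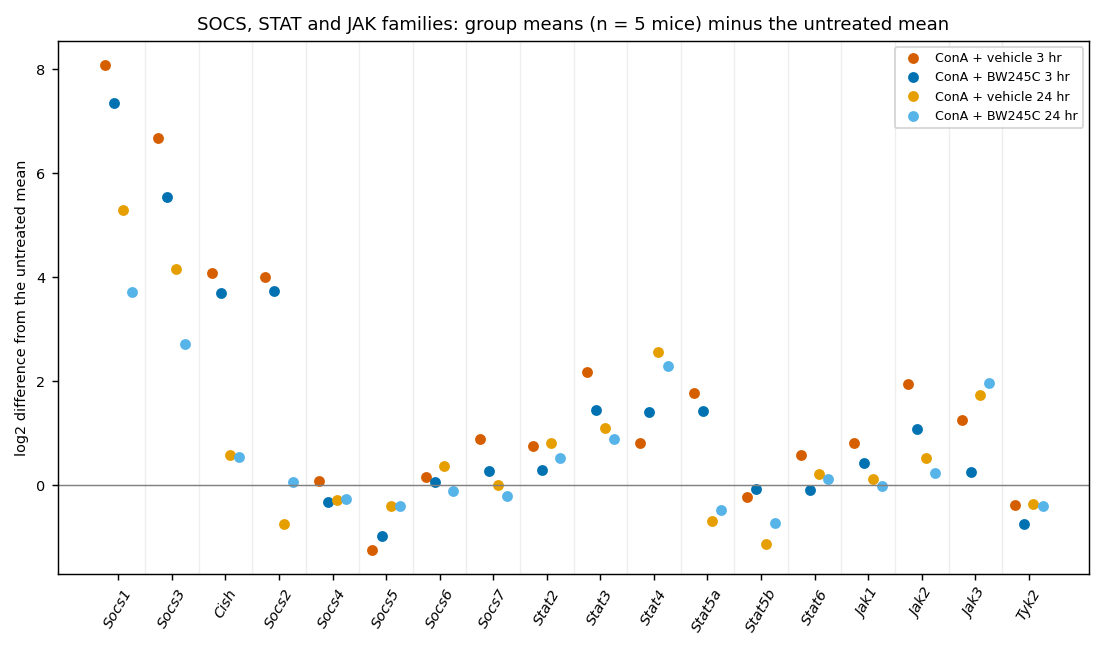
Group mean (n = 5 mice) minus the untreated mean, in log2, for 18 SOCS, STAT and JAK genes measured, 4 points per gene. At 3 hr after ConA + vehicle Socs1, Socs3, Cish and Socs2 lie between 4.00 and 8.08, and at 24 hr Socs1 (5.29) and Socs3 (4.15) are the highest of the 18.

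Of 10 other negative regulators measured (11 listed), 4 were higher and 3 lower at 3 hr after ConA, where 25% and 37% of all genes were. The phosphatase Ptpn2, which acts on Janus kinases and STATs, rose by 2.97, the phosphatase Ptpn1 by 1.84 and Usp18, an inhibitor at the type I interferon receptor, by 3.56. With BW245C at 3 hr 8 of the 10 were lower, where 16.9% of all genes were, and none higher. Among them were Ptpn2 (-0.92), Usp18 (-0.85) and Ptpn1 (-0.68), and 2 were called with the slide as a block. At 24 hr Usp18 (-0.90) and Ptpn2 (-0.54) were lower with BW245C and Sh2b3, an adaptor that restrains Jak2, was higher (0.30).

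Ligands of the pathway include cytokines seen in untreated liver on few or no arrays, which passed the filter through the ConA groups and so had to differ from untreated. Of 21 measured (29 listed), 15 were higher and none lower than untreated at 3 hr. Ifng, which encodes interferon gamma, rose by 6.66 (3 of 5 untreated mice above background). Il6 was above background in 1 of 5 untreated mice, so its difference of 5.79 is measured against values mostly at background. Csf2, at background in untreated liver, was at least 3.29-fold higher. At 24 hr 15 were higher and 2 lower, with Ifng at 4.46 and Il6, with the same limit, at 5.26.

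In BW245C livers at 3 hr 4 ligands were higher than with vehicle, including Il4 (1.10 ± 0.15) and Il13 (1.67 ± 0.38), the activators of Stat6, and 5 were lower, including Il15 (-1.52 ± 0.33). Of all genes 11.8% were higher and 16.9% lower there. Ifng differed by -0.32 (adjusted p = 0.336) and Il6 by -0.75 (adjusted p = 0.0995), and neither was called. At 24 hr 16 of the 21 were lower with BW245C and none higher, where 8.95% of all genes were lower. Of the 21, 11 were above background on fewer BW245C than vehicle arrays of 24 hr, some of them passing the filter largely through the vehicle group, so nothing is read from the count of 16. The other 10 were above background on all arrays of both groups; of these 7 were lower and none higher. Among them were Ifng at -1.47 ± 0.25 (adjusted p = 0.000166), Il6 at -1.33 ± 0.34 (adjusted p = 0.00606) and Il4 at -0.96 ± 0.15. Il13, above background in 3 of 5 BW245C mice, was at -1.71 ± 0.38.

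All 31 receptor genes were measured. At 3 hr after ConA 21 were higher and 4 lower, where 25% and 37% of all genes were. Among those higher were Osmr, the oncostatin M receptor (2.46), Ifngr2, the signalling chain of the interferon gamma receptor (1.97), Il4ra (0.90) and Il6st, which encodes gp130 (0.82). At 24 hr 17 were higher and 6 lower, where 29.8% and 39.1% of all genes were. The interleukin 12 receptor chain Il12rb1, upstream of Stat4, rose by 3.67 and the interleukin 2 receptor chain Il2rb by 2.98, while Ghr, the growth hormone receptor, fell by 2.85. With BW245C at 3 hr 6 of the 31 were lower, near the 16.9% of all genes lower, such as Il6st (-0.52) and Ifngr2 (-0.50), and 1, Epor, was higher (0.59; 11.8% of all genes). At 24 hr 6 were higher, among them Ghr (0.93), and 3 lower, among them Osmr (-1.12), near the 17.6% and 8.95% of all genes.

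Target genes were grouped by the signal or STAT known to drive them. For comparison, 25% of all genes were higher and 37% lower at 3 hr after ConA, and 29.8% and 39.1% at 24 hr. For BW245C against vehicle the shares were 11.8% and 16.9% at 3 hr, and 17.6% and 8.95% at 24 hr. All 16 measured interferon response targets (17 listed) rose at 3 hr and at 24 hr, with Cxcl9 at 7.50, Gbp2 at 7.34 and Irf1 at 4.93 at 3 hr. With BW245C at 3 hr 13 were lower and 1 higher (8 called with the slide as a block), with Ifit2 at -2.94, Ifit3 at -1.57 and Isg15 at -1.20. At 24 hr 9 were lower and none higher, with Cxcl10 at -1.61, Cd274 at -1.51 and Irf1 at -0.94.

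All 20 Stat3 targets and acute phase genes rose at 3 hr, with Lcn2 at 6.47, Saa1 at 5.37 and Bcl3 at 3.51. At 24 hr 17 were higher, with none lower. A2m was not above background in any untreated mouse, so it passed the filter through the ConA groups and had to differ from untreated. With BW245C at 3 hr 13 were lower and none higher (4 called with the slide as a block): Cebpb was at -0.83 and Lcn2 at -0.75, and A2m, not above background with BW245C, was at least 3.20-fold lower. At 24 hr 5 were lower and Lbp was higher; the regulators Junb (-1.40), Cebpd (-1.03) and Bcl3 (-0.89) were lower, while the secreted acute phase genes Saa1 (0.16) and Lcn2 (0.03) were not called.

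Of 8 Stat5 and growth hormone targets, which include Cish and Socs2, 4 were higher and none lower at 3 hr, and 1 was higher and 4 lower at 24 hr. At 24 hr 29.8% of all genes were higher and 39.1% lower. Igfals, a binding partner that keeps Igf1 in the circulation, fell by 3.76 at 24 hr, Igf1 by 1.23 and the liver factor Onecut1 by 1.17, beside lower hepatocyte markers (8 of 8 lower). With BW245C at 24 hr Igfals (2.03 ± 0.29) and Onecut1 (1.00 ± 0.31) were higher than with vehicle, and Igfbp3 was lower (-1.08), beside 4 of 8 hepatocyte markers higher. Their part in these differences was not tested.

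Of 7 Stat4 and type 1 helper genes 5 were higher at 3 hr and 4 at 24 hr, with none lower. Of all genes 25% were higher and 37% lower at 3 hr, and 29.8% and 39.1% at 24 hr. Il18rap was above background on 12 of the 25 arrays and Il18r1 on 18, so dim values enter these counts. Ifng and Il12rb2 also stand in the ligand and receptor lists. Tbx21, the master factor of type 1 helper cells, rose by 2.42 and 3.00. Of 9 Stat6 targets 5 were higher at 3 hr, and 5 were higher and 2 lower at 24 hr. The eosinophil attractant Ccl11 was at least 125-fold higher at 3 hr and at least 11.5-fold higher at 24 hr, and Ccl24 rose by 3.60 at 3 hr. In BW245C livers at 3 hr Ccl11 (-1.55 ± 0.26) and Ccl24 (-1.43 ± 0.34) were lower, although Il4 and Il13 were higher. Mrc1, a receptor of macrophages and sinusoidal endothelium, fell by 3.26 at 24 hr. Of 9 Kupffer cell and monocyte markers 5 were lower and none higher at 3 hr, and 6 were lower and 1 higher at 24 hr. Of 6 sinusoidal endothelial markers 1 was lower and 1 higher at 3 hr, and 3 were lower and 2 higher at 24 hr; their part in the Mrc1 level was not tested.

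**Figure D5:**
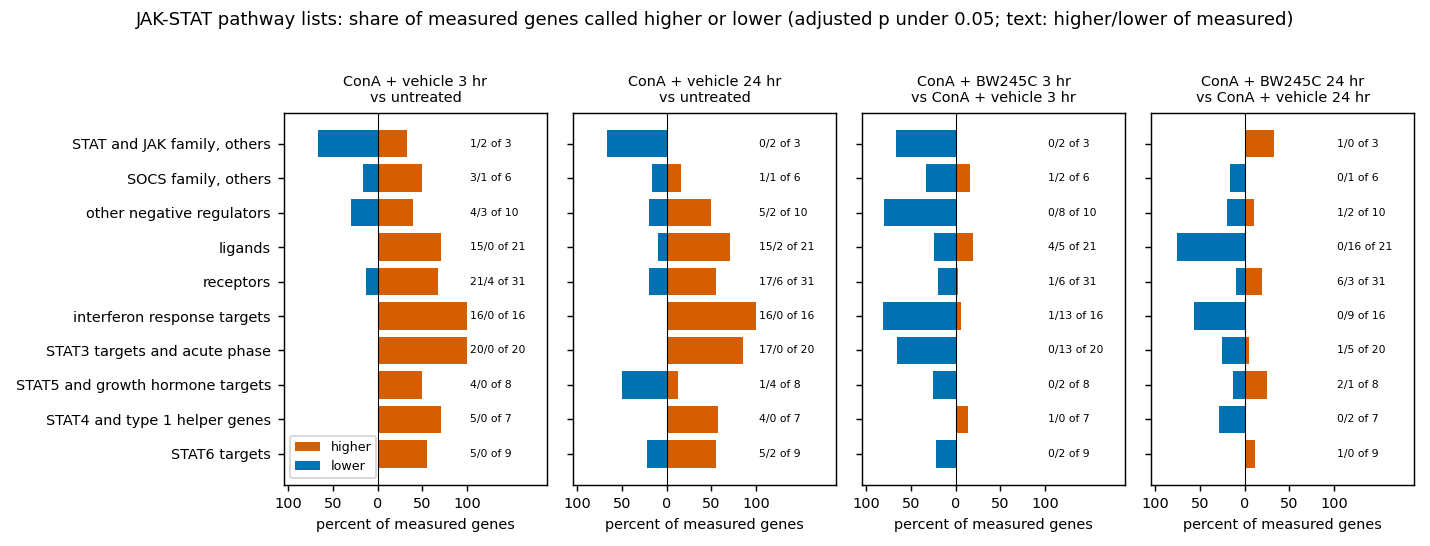
Share of the measured genes of each of 10 pathway lists called higher (right) or lower (left) in 4 comparisons, in percent, with the counts as text. Interferon response targets and Stat3 targets are higher throughout at 3 hr after ConA + vehicle, 16 of 16 and 20 of 20. The 20 include A2m, which passed the filter through the ConA groups. In the ligand list 16 of 21 are lower at 24 hr of BW245C against vehicle. The filter on dim probes favoured a lower call there.

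The gene nearest in pattern to each member was the one whose log2 levels, each centred on its own mean, differed least over the 25 arrays, measured as the root mean square (RMS) difference. For Socs1 these were Hcar2 (RMS 0.395), Ifng (0.522) and Cxcl10 (0.534), where the median over all genes was 2.98. Socs3 was nearest to Tnfaip6 (0.334), Maff (0.386) and Arid5a (0.396), against a median of 2.44. Jak2 was nearest to Tbk1 (0.139), Jak3 to Tap2 (0.241), Stat2 to Otud5 (0.128), Stat3 to Dtx3l (0.209), Stat4 to Bcl6b (0.307), Stat5a to Zbtb5 (0.203) and Stat6 to Ankrd17 (0.119). Among the members the closest pairs were Stat2 with Stat6 (0.240), Jak2 with Stat3 (0.363) and Stat2 with Stat3 (0.582). Socs1 and Socs3, at 0.643, were farther apart than these and than some other pairs. These distances share arrays and scaling and carry no test. They are not scaled to a gene's own variation, so genes that vary little lie close to one another. The SD over the 25 arrays was 0.326 for Stat2 and 0.260 for Stat6, against 2.90 for Socs1 and 2.35 for Socs3. The median distance over all genes was 0.593 for Stat2 and 0.548 for Stat6.

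Ordered by group mean, Socs1, Socs3, Stat3 and Jak2 shared an order, and each other member had its own. These 4 ran from untreated through BW245C 24 hr, vehicle 24 hr and BW245C 3 hr up to vehicle 3 hr. No neighbouring groups overlapped for the inhibitors, while for Jak2 only the 2 groups of 3 hr were separate from each other. For Stat3 those groups and the step from untreated to BW245C 24 hr showed no overlap. Stat4 and Jak3 were lowest in untreated liver and highest at 24 hr, and the vehicle and BW245C groups of 24 hr overlapped for both. The Stat4 mean with BW245C was above vehicle at 3 hr and below it at 24 hr. For Jak3 it was below vehicle at 3 hr and above it at 24 hr. Stat5a was lowest at 24 hr and highest at 3 hr, with overlap only between the groups of 3 hr. Stat2 and Stat6 had the narrowest range, and all their neighbouring groups overlapped. Stat2 was lowest in untreated liver and highest in vehicle 24 hr, and Stat6 was lowest in BW245C 3 hr and highest in vehicle 3 hr.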

How the data were processed

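Liver RNA of 25 mice was measured on 25 one-colour Agilent arrays, 5 per group. The deposited scanner files hold Cy3 intensity values per spot; per the file headers they were made by Agilent Feature Extraction 10.7.3.1 with background subtraction and a probe design on mm9, while the submitters' processing notes give version 9.1. Per the labels' protocols 0.5 ug of RNA was labelled. The series matrix that the authors deposited is the same intensity multiplied by an array factor of 2.42 to 3.29. Background and outlier flags were used as deposited by the authors (a score of 0 or 1 per spot).

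Spots other than controls (59305 per array, 55681 probes) were scaled by the 75th percentile of their array on the log2 scale. Outlier-flagged spots were left out and spots of a probe averaged. RefSeq transcripts gave 26582 probes a symbol. Kept were the 33504 probes that 5 or more of the 25 arrays showed well above background; each of 15104 genes was read from its brightest probe. Group means were estimated in limma 3.58.1 (R 4.3.3; files read by data.table, version 1.17.8) over the 25 arrays together, with Benjamini-Hochberg adjustment over the genes of a comparison and a threshold of 0.05; the steps were tested on simulated data. The interaction and 6 group comparisons were fitted. Promoters came from RefSeq, build GRCm38.p6. Figures used Python 3.11.15 with matplotlib 3.10.9, pandas 2.3.3 and numpy 2.4.6.

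The members, the 10 pathway and 6 marker lists (184 genes) and the tests were chosen with earlier results of these data known. Genes named beside the members were the other family genes, a fixed set of ligands, receptors and targets, and for each list and comparison the called genes with the smallest adjusted p; a few were singled out after their values were seen. A gene of the STAT family is not reported here. Nothing in the labels says that replicate numbers pair mice, and no pairing was used. Over 50 pairs of same-numbered mice the median correlation of deviations was -0.0135 (-0.36 to 0.34), which cannot show that they were unpaired. Alternatives were normexp background (offset 50, on the median signal), quantile normalization, the percentile over probes found on all arrays, the series matrix, no filter, signal required on all 25 arrays, the mean of probes, a fixed or random slide block, the replicate block, only the groups compared, and leaving out each mouse. Single other probes and within-slide values were added after the data were seen.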

Additional observations from a re-analysis of the deposited data

Results flagged for a closer look

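In 4 of 45 groups of 5 mice (9 members in 5 groups) 1 mouse lay apart from the other 4 by more than Dixon's limit of 0.71 of the group's range; chance gives about 1 in 20. For Stat4, untreated replicate 1 was at -3.09 where the others ran from -4.40 to -4.03, and ConA + BW245C 3 hr replicate 2 was at -2.03 where the others ran from -2.72 to -2.62. For Stat5a, ConA + BW245C 3 hr replicate 5 was at 2.20 against 2.96 to 3.13. For Stat6, ConA + BW245C 24 hr replicate 5 was at 1.61 against 1.25 to 1.35.

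The difference between BW245C and vehicle livers was not the same at 24 hr as at 3 hr for 5 members by the limma interaction test. The 24 hr difference minus the 3 hr difference was 1.23 for Jak3, 0.56 for Stat5a, 0.56 for Stat6, -0.87 for Stat4 and -0.84 for Socs1. With the slide as a block Jak3 alone kept its call, at 0.91 (adjusted p = 0.0144).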

How the results depend on the processing

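Under the other settings listed, leaving out a mouse apart, 642 values of members kept direction and call, 25 lost the call, 13 gained it and 6 turned sign; with a mouse left out the counts were 1530, 31, 14 and 0. With the slide as a fixed block 5 members were called at 3 hr of BW245C against vehicle (1770 genes), 5 at 24 hr, and 1 for the interaction (928 genes); as a random block the interaction had 3 members and 2107 genes and the 3 hr comparison 2650 genes, and with only the groups compared 2190. Quantile normalization and the series matrix each left 3 interaction members. Leaving out single mice called 9 to 9 members (8753 to 9541 genes) at 3 hr of ConA, 8 to 9 (9950 to 10553) at 24 hr, 7 to 9 (3134 to 5412) for BW245C at 3 hr, 2 to 3 (2922 to 4342) at 24 hr, 8 to 8 (9944 to 10422) and 7 to 9 (10050 to 10694) between times with vehicle and BW245C, and 3 to 7 (3254 to 5357) for the interaction. Signs turned for the Stat2 interaction (-0.080 quantile, -0.017 percentile over probes found on all arrays, -0.054 series matrix, -0.022 slide block), the Stat3 interaction (-0.075, slide block), Stat6 between times (0.093, series matrix) and 1 other Stat6 probe (-0.099 at 24 hr of ConA, 0.013 for BW245C at 24 hr). For other genes they turned for BW245C at 3 hr in Ghr (-0.093 normexp, -0.052 mean of probes; -0.051 to 0.047 without a mouse) and Socs6 (0.013 percentile, 0.0073 series matrix). At 24 hr of BW245C they turned in Socs5 (0.068 normexp, 0.071 quantile; -0.038 to 0.024), Tyk2 (0.0099 normexp; -0.11 to 0.017), Socs4 (-0.052 percentile, -0.095 series matrix, -0.089 and -0.044 slide blocks; -0.078 to 0.093) and Cish (-0.25 to 0.073). Against untreated they turned in Il6ra at 24 hr (0.13 quantile, 0.038 percentile, 0.15 series matrix, 0.69 and 0.13 slide blocks), Il6st at 24 hr (0.18, 0.16, 0.28, 0.16 and 0.026 in that order; -0.13 to 0.034), Socs7 at 24 hr (-0.051 to 0.065) and Socs4 (-0.022 at 3 hr, 0.063 at 24 hr, series matrix; -0.017 to 0.17 at 3 hr). The causes were not tested. The labels do not say whether replicate numbers pair mice. A replicate block called 9287, 10296, 4106, 3954, 10251, 10557 and 4401 genes in the 7 comparisons in the order of the mouse ranges. This block ended the Socs1 interaction call (adjusted p = 0.057) and no other call of a member. Stat4 was not in the fit that required signal on all 25 arrays.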
